A study of Mus musculus with 8 samples.

Results

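The genes described here are the 10 that encode the CDK inhibitors and the D-type cyclins, which together set the pace of the G1 phase of the cell cycle. They were taken by gene name from the GENCODE annotation of mm10, where all 10 were found among 21851 protein-coding genes. There were 4 INK4 inhibitors (Cdkn2a, Cdkn2b, Cdkn2c and Cdkn2d), 3 Cip/Kip inhibitors (Cdkn1a, Cdkn1b and Cdkn1c) and 3 D-type cyclins (Ccnd1, Ccnd2 and Ccnd3). Every region enriched in the histone mark H3K27-me3 that lay over one of these genes, or within 50 kb of one of its start sites, was collected from the lists of both virus groups. This gave 58 of the 59267 regions of the AAV-Cre list and 74 of the 34586 regions of the AAV-GFP list.

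D-type cyclins bind the kinases CDK4 and CDK6, which phosphorylate the retinoblastoma protein and so free the E2F factors that switch on genes of DNA replication. INK4 proteins bind these kinases directly and keep the cyclins away, while Cip/Kip proteins act on a wider range of cyclin and kinase complexes. H3K27-me3 is laid down by Polycomb repressive complexes at silent genes, and the Cdkn2a locus is a textbook target that loses the mark when cells become senescent. Most hepatocytes of the adult liver rest outside the cell cycle.

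The data came from H3K27-me3 ChIP-seq on livers of male C57BL/6 mice that carried floxed alleles of Jmjd3, also named Kdm6b, whose product demethylates H3K27-me3. Both groups carried the floxed alleles, were injected with virus at 8 weeks of age, and were fasted for 16 h at 12 weeks after injection. One group received AAV-TBG-Cre, in which the hepatocyte-directed TBG promoter drives the Cre recombinase, and the other received the control AAV-GFP, whose promoter the sample labels do not state. Each group had 2 H3K27-me3 and 2 input libraries, for 8 libraries in all. The labels name the tissue as primary liver cells, whereas the protocol fixes minced liver, which also holds cells that the TBG promoter does not target and that keep JMJD3. A list of enriched regions does not show the deletion of Jmjd3 itself, so the group labels could not be checked in that way.

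The authors deposited 1 list per group, made from both of its H3K27-me3 libraries. The lists therefore give no value per mouse, no difference between them could be set against the spread between replicates, and no test was made. Intervals cover counting error only. The lists differed throughout the genome. The shortest region was 300 bp wide in AAV-Cre and 120 bp in AAV-GFP. AAV-Cre regions covered 73.7 Mb with a median width of 753 bp, AAV-GFP regions covered 14.9 Mb with a median width of 231 bp, and 88.6% and 46.8% of them had a q-value of 0.05 or lower. As a check of the mark, all 10 developmental regulators examined had a region within 1 kb of a start site in both lists, and 0 of 10 hepatocyte genes did in either.

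The promoter sequences are shown for start sites inside regions and, for contrast, for start sites outside them. In the RefSeq table of promoter windows for GRCm38.p6, the assembly that mm10 names, 7 of the 10 genes were found with 11 windows of 300 bases. Not matched were Cdkn1c, Ccnd1 and Ccnd2. The stretches below end before any untranslated exon, run 5′ to 3′ on the strand of the gene, and have each CpG in capitals. Cdkn2a has a pair of promoters, 1 for the p16-INK4A transcript at chr4:89282193-89282442 and 1 for the ARF transcript at chr4:89294654-89294869, both on the minus strand and both inside regions of both lists. The Cdkn2b promoter at chr4:89311040-89311282, minus strand, lay outside the regions of both lists. The Cdkn1b promoter at chr6:134920151-134920400 and the downstream Ccnd3 promoter at chr17:47593217-47593466, both on the plus strand, also lay outside all regions.
Cdkn2a, p16-INK4A promoter: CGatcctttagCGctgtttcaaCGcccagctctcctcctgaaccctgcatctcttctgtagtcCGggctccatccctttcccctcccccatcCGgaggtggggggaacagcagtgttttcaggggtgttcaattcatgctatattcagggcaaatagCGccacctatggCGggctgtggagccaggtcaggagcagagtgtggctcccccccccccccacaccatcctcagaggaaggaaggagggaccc
Cdkn2a, ARF promoter: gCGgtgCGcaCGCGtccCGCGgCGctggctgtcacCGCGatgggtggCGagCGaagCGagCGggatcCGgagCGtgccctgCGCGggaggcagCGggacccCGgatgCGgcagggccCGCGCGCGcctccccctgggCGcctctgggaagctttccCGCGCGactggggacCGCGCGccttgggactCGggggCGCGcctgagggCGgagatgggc
Cdkn2b promoter: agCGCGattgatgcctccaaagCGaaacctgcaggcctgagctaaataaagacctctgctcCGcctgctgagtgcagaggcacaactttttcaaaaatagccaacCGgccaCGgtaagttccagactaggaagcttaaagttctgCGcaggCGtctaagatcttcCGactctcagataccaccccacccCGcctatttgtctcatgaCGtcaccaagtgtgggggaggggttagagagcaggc
Cdkn1b promoter: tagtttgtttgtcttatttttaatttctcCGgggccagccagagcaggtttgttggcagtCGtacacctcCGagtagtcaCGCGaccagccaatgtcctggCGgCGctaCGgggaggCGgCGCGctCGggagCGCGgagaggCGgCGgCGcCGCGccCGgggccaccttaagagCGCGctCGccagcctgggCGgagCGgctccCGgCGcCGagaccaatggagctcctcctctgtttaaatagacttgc
Ccnd3 downstream promoter: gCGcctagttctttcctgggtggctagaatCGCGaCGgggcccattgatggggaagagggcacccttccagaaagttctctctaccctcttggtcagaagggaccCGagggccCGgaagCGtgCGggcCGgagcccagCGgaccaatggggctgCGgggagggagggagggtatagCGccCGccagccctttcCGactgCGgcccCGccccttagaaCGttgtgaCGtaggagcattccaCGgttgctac

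Only windows of Cdkn2a lay in regions, and Cdkn1c, Ccnd1 and Ccnd2 had no window in the table. Whether the number of CpG goes with the mark could therefore not be tested. Among the windows found, this number did not separate those of Cdkn2a from those outside regions. The window of the ARF start held 45 CpG, a count reached by 1.93% of all 32851 windows in the table, and the window of the p16-INK4A start held 12, reached by 39.6%. All 300 bases of both windows were inside regions in each list. The windows of Cdkn1b, with 30 CpG, and of the downstream Ccnd3 start, with 28, had 0 bases in regions. The Cdkn2b window held 18 CpG and also had 0 bases in regions. The median over all windows was 7 CpG. The remaining windows, of Cdkn2c with 8 and 33 CpG, Cdkn2d with 22, Cdkn1a with 2 and 23 and the upstream Ccnd3 start with 15, had 0 bases in regions in both lists.

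Within the regions, the summit is the base with the highest signal. For Ccnd2 and Cdkn1c, 250 bases centred on the summit of the strongest AAV-Cre region closest to their own start sites are shown, since the AAV-GFP list placed a summit at nearly the same base. The Ccnd2 summit lay 2281 bp upstream of the start site, at chr6:127153216-127153465, and 98 bp from an AAV-GFP summit. The Cdkn1c summit lay 23094 bp downstream of the start site, between protein-coding genes, at chr7:143437777-143438026, and 30 bp from an AAV-GFP summit. Both are read from GRCm38.p6 on the minus strand.
Ccnd2, AAV-Cre summit: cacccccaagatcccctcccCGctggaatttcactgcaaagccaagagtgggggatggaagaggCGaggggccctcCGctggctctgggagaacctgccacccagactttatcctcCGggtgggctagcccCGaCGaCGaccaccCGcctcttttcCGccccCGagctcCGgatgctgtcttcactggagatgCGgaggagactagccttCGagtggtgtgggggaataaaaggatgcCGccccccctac
Cdkn1c, AAV-Cre summit: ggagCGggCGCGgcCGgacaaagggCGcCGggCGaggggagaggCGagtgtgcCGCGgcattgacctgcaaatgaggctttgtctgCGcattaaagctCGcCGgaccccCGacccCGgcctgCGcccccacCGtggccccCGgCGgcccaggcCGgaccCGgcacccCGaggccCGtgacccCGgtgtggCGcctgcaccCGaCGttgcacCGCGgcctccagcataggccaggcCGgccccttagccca

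The Cdkn1c stretch held 30 CpG, a count reached by 1.60% of the 59267 summits of the AAV-Cre list when 250 bases around each were read, and the Ccnd2 stretch held 14, reached by 7.43%. The median over these summits was 3 CpG. The corresponding stretches of Ccnd1, with 16 CpG, and Cdkn2a, with 11, were reached by 6.33% and 10.1% of summits. All these stretches come from strong regions, ranked 246 (Ccnd2) to 1472 (Cdkn1c), while the percentages cover the summits of the whole list. Summits of similar rank were not compared. At Ccnd1 and Cdkn2a the nearest AAV-GFP summit lay farther from the AAV-Cre summit, at 760 bp and 1726 bp.

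The same 5 genes carried the mark close to a start site in both lists: Cdkn2a, Cdkn2b, Cdkn1c, Ccnd1 and Ccnd2. Within 1 kb of a start site these were 5 of 10 genes in AAV-Cre, where 24.0% of all protein-coding genes had a region, and 5 of 10 in AAV-GFP, where 16.6% did. Cdkn2a and Cdkn2b are neighbours that share most of their regions, so the 5 genes are not 5 independent loci. None of the 10 had a region within 1 kb of a start site in 1 list and not in the other. Over all genes, 7.63% had one in AAV-Cre alone and 0.288% in AAV-GFP alone, so a count of 0 among 10 genes was near the background. This count of 0 rests on weak AAV-GFP regions at Cdkn1c and Cdkn2b. It became 1 (Cdkn1c) at a q-value of 0.05 or a width of 300 bp, and 2 (Cdkn1c and Cdkn2b) at a q-value of 0.01 or a −log10 p of 5. The width cut acted on AAV-GFP alone, since no AAV-Cre region was shorter than 300 bp. The shares of all genes at these settings are not given, so the counts of 1 and 2 have no background beside them. The same 5 genes were found within 15 kb, the window used by the study, against 41.6% of all genes in AAV-Cre and 28.0% in AAV-GFP. Again 0 of 10 were found in a single list. Over all genes, 14.8% were found in AAV-Cre alone and 1.21% in AAV-GFP alone, so with 10 genes this count too does not stand apart from the background.

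With gene bodies and 50 kb on each side, 7 genes in AAV-Cre and 6 in AAV-GFP had a region, against 62.2% and 47.2% of all genes. Cdkn1a was added only in AAV-Cre and Cdkn2d in both lists. Over all genes, 17.1% had a region at this distance in AAV-Cre alone and 2.09% in AAV-GFP alone, so that the counts of 1 and 0 among the 10 genes were near the background. Cdkn1b, Cdkn2c and Ccnd3 had 0 regions in either list. The region nearest to Cdkn1b in AAV-Cre began 51685 bp from a start site, just outside the window, and the farthest region counted for Ccnd1 lay 49676 bp from its start site, just inside.

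**Figure D1:**
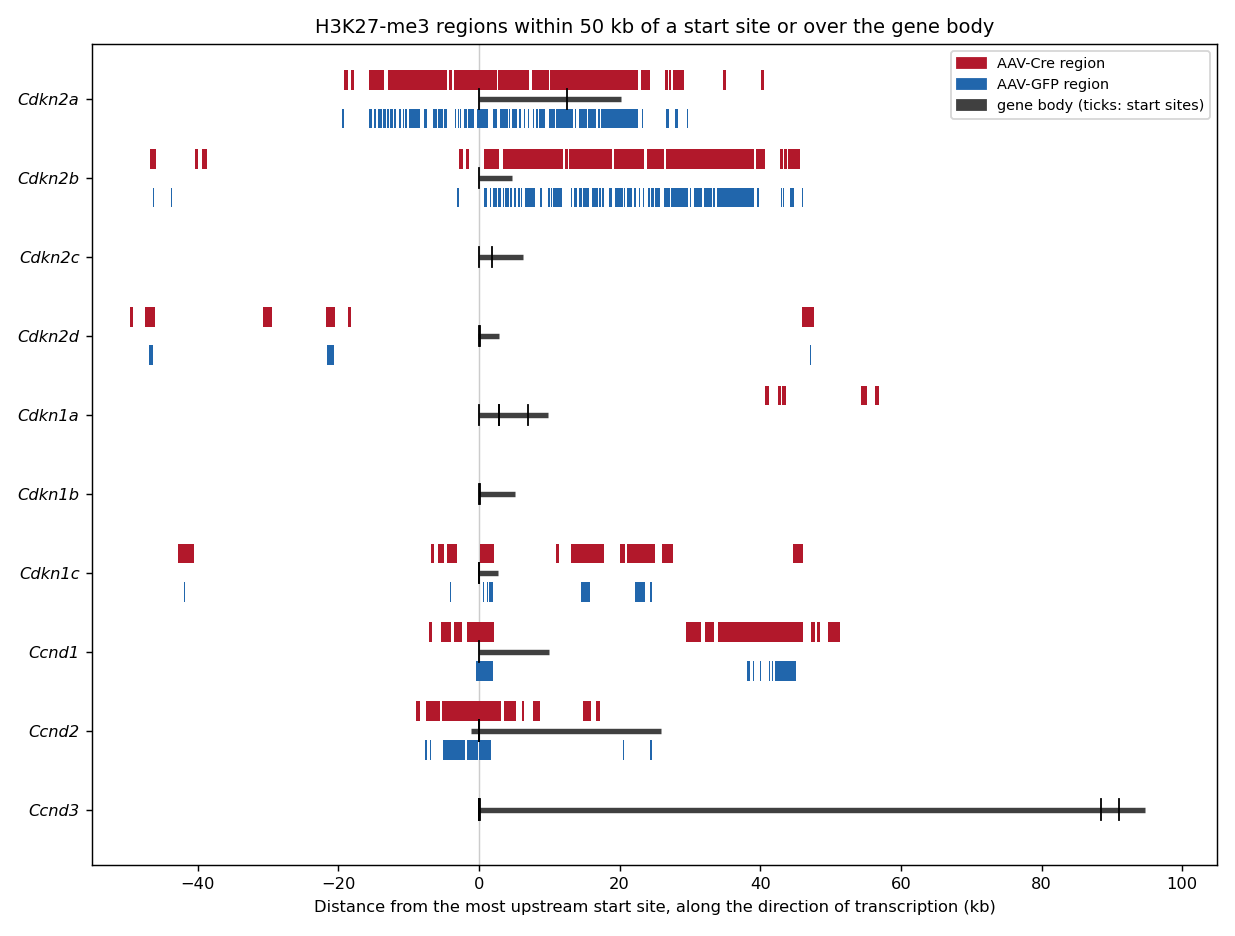
H3K27-me3 regions at the 10 genes, drawn by distance in kb from the most upstream start site in the direction of transcription, with AAV-Cre regions in red above each gene body and AAV-GFP regions in blue below it. Regions lay over the start sites of Cdkn2a, Ccnd1 and Ccnd2, just inside Cdkn1c and Cdkn2b, and not within 50 kb of Cdkn2c, Cdkn1b and Ccnd3.

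The regions collected for these genes had larger median widths than their lists. AAV-Cre regions here had a median width of 1121 bp and AAV-GFP regions one of 303.5 bp. In AAV-Cre 5 of 58 were 5 kb or wider, against 2.71% of the list, and in AAV-GFP 1 of 74 was, against 0.165%. These came from few loci. Those of 12526, 8427 and 6057 bp in AAV-Cre and of 5257 bp in AAV-GFP lay at Cdkn2a and Cdkn2b. The other AAV-Cre ones lay over the start sites of Fgf15 (12174 bp) and Ccnd2 (8401 bp). Of the AAV-GFP regions, 70 of 74 overlapped an AAV-Cre region by at least 1 bp (94.6%, Wilson 95% interval 86.9 to 97.9%), compared with 86.4% of the whole list. Of the AAV-Cre regions, 24 of 58 overlapped an AAV-GFP region (41.4%, interval 29.6 to 54.2%), compared with 24.2% of the list. Neighbouring regions of a gene are not independent, since a broad domain is cut into several. The Cdkn2a and Cdkn2b locus alone held 18 of the 58 AAV-Cre and 49 of the 74 AAV-GFP regions. The intervals treat regions as independent and are therefore too narrow to set the 10 genes apart from the lists. For 39 AAV-Cre and 63 AAV-GFP regions the closest protein-coding start site was that of one of the 10 genes. The other 19 and 11 lay closer to a protein-coding neighbour. Start sites of noncoding genes were not considered.

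Cdkn2a and Cdkn2b, which encode the INK4 inhibitors p16-INK4A and p15-INK4B, lie next to each other on chromosome 4 and shared most of their regions. The locus held 18 regions in AAV-Cre, 13 of them counted for both genes, and 49 in AAV-GFP, 47 of them counted for both. In AAV-Cre, 8 regions with gaps of 251 to 577 bp followed each other over 39958 bp (chr4:89270363-89310320). In AAV-GFP the same stretch was made of a group of 26 regions over 26732 bp (chr4:89271287-89298018) and a group of 16 regions over 11065 bp (chr4:89299207-89310271). Between the ends of the genes, over 36569 bp, 7 AAV-Cre regions covered 92.4% and 41 AAV-GFP regions covered 64.3%. All 41 AAV-GFP regions there overlapped AAV-Cre regions, which had a median width of 4276 bp compared with 338 bp.

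Cdkn2a (chr4:89274471-89294653, minus strand) was the most densely covered of the 10 genes. The coverage of a gene was measured as the share of bases within 10 kb of its start sites that lay inside regions. For Cdkn2a it was 95.5% in AAV-Cre, a value that 0.275% of all genes reached, and 69.1% in AAV-GFP, which 0.206% reached. Both start sites were inside regions in both lists, the p16-INK4A start and that of ARF, a protein from an alternative reading frame that stabilizes p53. The p16-INK4A start lay in the strongest region of the locus in each list. This was a region of 12526 bp in AAV-Cre (chr4:89271969-89284494, ranked 514 of the list by p-value, −log10 q of 51.07) and of 2428 bp in AAV-GFP (chr4:89281282-89283709, ranked 439, −log10 q of 18.13). The summit of the AAV-Cre region lay 7225 bp downstream of the p16-INK4A start, and that of the AAV-GFP region 241 bp upstream of it. The AAV-Cre region overlapped 7 AAV-GFP regions.

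The ARF start lay in an AAV-Cre region of 6057 bp (chr4:89292132-89298188, ranked 1377) and in an AAV-GFP region of 850 bp (chr4:89294120-89294969, ranked 1517). The AAV-GFP summit was 5 bp from that start site. Regions thus covered the CpG-dense ARF promoter and the CpG-poorer p16-INK4A promoter, whose sequences are given above, in both lists. Folds and scores depend on the depth of each list, and those of single regions were not compared between lists.

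Cdkn2b (chr4:89306299-89311039, minus strand) had regions over its body but none at its start site. Regions covered 72.7% of the body in AAV-Cre and 54.8% in AAV-GFP. They stopped 719 bp inside the gene in AAV-Cre and 768 bp inside in AAV-GFP, where the last region was 404 bp wide with a −log10 q of 1.63. The stretch without a region around the start site was 2116 bp long in AAV-Cre (chr4:89310321-89312436) and 3614 bp in AAV-GFP (chr4:89310272-89313885). Just upstream of that stretch lay AAV-Cre regions of 427 and 599 bp and an AAV-GFP region of 239 bp. Coverage within 10 kb was 48.7% in AAV-Cre, reached by 3.95% of all genes, and 28.0% in AAV-GFP, reached by 1.88%.

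**Figure D2:**
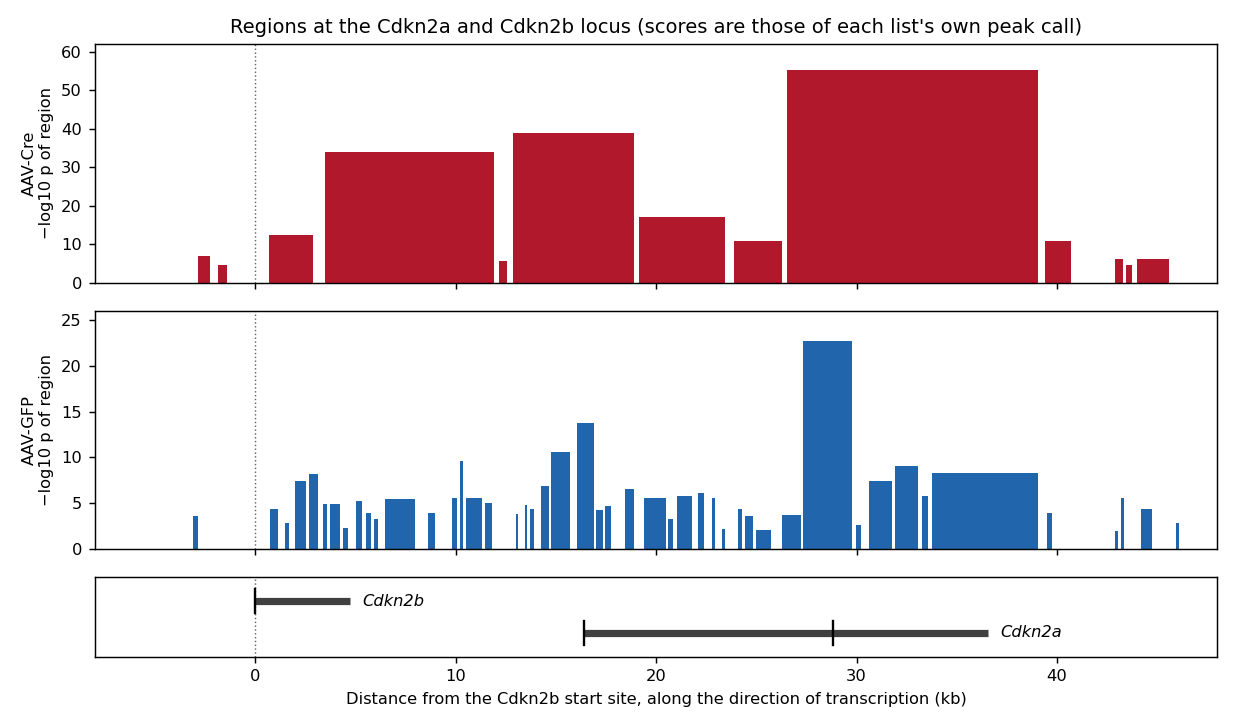
Regions at Cdkn2a and Cdkn2b, drawn by distance in kb from the Cdkn2b start site (dotted line) with the height giving the −log10 p of each region on a separate axis for each list, and gene bodies and start sites at the bottom. A few wide AAV-Cre regions and many narrow AAV-GFP regions covered the same stretch, and both sets broke off just inside Cdkn2b. Beyond a gap at its start site, narrow regions resumed upstream in both lists.

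The other INK4 genes had no region nearby. Cdkn2c, which encodes p18-INK4C, lies on the same chromosome (chr4:109660876-109667189, minus strand), and its nearest region was 270682 bp away in AAV-Cre and 305517 bp away in AAV-GFP. Cdkn2d, which encodes p19-INK4D (chr9:21288410-21291407, minus strand), had 0 regions within 15 kb and its nearest were 18173 bp and 20565 bp away. All 6 AAV-Cre and 3 AAV-GFP regions counted for it were closer to a neighbour, namely Ap1m2, Slc44a2 or S1pr5. The strongest in each list lay over the start site of Ap1m2, a clathrin adaptor subunit of epithelial cells, with a width of 1386 bp in AAV-Cre and 1052 bp in AAV-GFP.

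Among the Cip/Kip genes, only Cdkn1c had a region within 15 kb. Cdkn1c (chr7:143458339-143461050, minus strand) encodes p57-KIP2, the imprinted member of the family, which is expressed from the maternal copy. In AAV-Cre a single region of 2014 bp (chr7:143458891-143460904, ranked 4511, −log10 q of 14.60) covered 74.3% of the body and ended 92 bp from the closest start site. In AAV-GFP 3 regions of 559, 131 and 238 bp lay within it and covered 34.2% of the body, with −log10 q of 5.42, 0.30 and 0.00. The last of these, 457 bp from the start site, was the sole AAV-GFP region within 1 kb, so this call rests on a region whose q-value did not pass 0.05. Coverage within 10 kb came to 23.3% in AAV-Cre and 5.25% in AAV-GFP, reached by 11.8% and 12.1% of all genes.

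The strongest Cdkn1c regions lay away from the gene. In AAV-Cre the top region was the one whose summit sequence is shown above, 3902 bp wide (chr7:143436068-143439969, ranked 1472), and in AAV-GFP the top region was 1310 bp wide (chr7:143445233-143446542, ranked 2066). Both were between protein-coding genes on the downstream side and had Cdkn1c as their closest protein-coding start site. A further AAV-Cre region covered the start site of the imprinted neighbour Phlda2 (chr7:143501626-143503789, 2164 bp), and overlapped an AAV-GFP region of 198 bp.

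Cdkn1a, the p53 target that encodes p21-CIP1 (chr17:29090976-29100727, plus strand), had 0 regions in AAV-GFP, where the nearest was 91146 bp away. In AAV-Cre it had 5 regions of 475 to 878 bp at 33764 to 49429 bp from a start site, all closest to Rab44, a Rab-family GTPase gene. These were weak, with −log10 p of 3.02 to 4.50, and ranked from 30020 to 52494 in the list. Cdkn1b, which encodes p27-KIP1 (chr6:134920401-134925513, plus strand), had its nearest region at 51685 bp in AAV-Cre and 64221 bp in AAV-GFP.

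The D-type cyclins split in the same way, with Ccnd1 and Ccnd2 covered at the start site in both lists and Ccnd3 in neither. Ccnd2 (chr6:127125162-127152193, minus strand) had the strongest regions of the 10 genes. All 3 of its start sites lay in an AAV-Cre region of 8401 bp (chr6:127147882-127156282), which ranked 246 of 59267 with a fold of 13.27 over input and a −log10 q of 61.71. It contained 3 AAV-GFP regions of 1789, 1515 and 3057 bp. The strongest of these (chr6:127151227-127152741), which ranked 240 of 34586 with a −log10 q of 21.96, began 167 bp upstream of the start sites, and the region over the start sites themselves (chr6:127149333-127151121) ranked 3625. Coverage within 10 kb was 69.4% in AAV-Cre, reached by 1.53% of all genes, and 33.8% in AAV-GFP, reached by 1.33%. The only AAV-GFP regions at Ccnd2 with no AAV-Cre counterpart were 300 and 120 bp wide, in the downstream part of the gene, with −log10 q of 0.57 and 0.01.

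Ccnd1 (chr7:144929931-144939925, minus strand), the cyclin that is induced early when hepatocytes re-enter the cycle, had 1 region over its start site in each list. The AAV-Cre region was 3909 bp wide (chr7:144937658-144941566, ranked 561, −log10 q of 50.02), and the AAV-GFP region was 2403 bp wide and lay within it (chr7:144937916-144940318, ranked 2660, −log10 q of 6.86). Coverage within 10 kb came to 35.3% in AAV-Cre and 12.0% in AAV-GFP, reached by 6.77% and 5.96% of all genes. All 7 AAV-GFP regions counted for Ccnd1 overlapped AAV-Cre regions.

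The widest region near Ccnd1 belonged to a neighbour. A region of 12174 bp in AAV-Cre (chr7:144893750-144905923, ranked 364) covered the start site of Fgf15, the intestinal hormone gene that represses bile acid synthesis in liver, and ended 33946 bp from the Ccnd1 start site. It contained 6 AAV-GFP regions, of which the strongest, 3098 bp wide, ranked 507. Ccnd3 (chr17:47505051-47599691, plus strand) had 0 regions over its body of 94641 bp, and the nearest was 94203 bp away in AAV-Cre and 94227 bp in AAV-GFP.

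**Figure D3:**
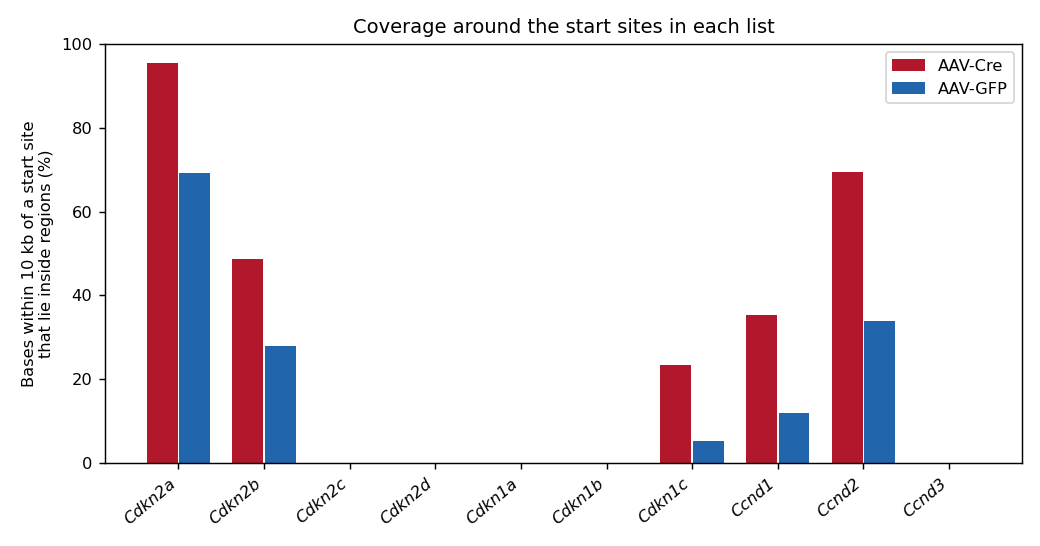
Percent of bases within 10 kb of a start site that lay inside regions, for each of the 10 genes, with 1 bar for each pooled list. The bars fell in the same order in both lists, from Cdkn2a (95.5% and 69.1%) through Ccnd2, Cdkn2b and Ccnd1 to Cdkn1c (23.3% and 5.25%), and were 0 for the other 5 genes.

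Coverage was higher in AAV-Cre than in AAV-GFP at each of the 5 marked genes, and AAV-Cre regions also covered more bases over the whole genome. The shares of all genes that reached each value are given above for each gene. At these 5 genes, 89.9 to 100% of the AAV-GFP bases within 10 kb were also in AAV-Cre regions, whereas 22.5% (Cdkn1c) to 71.6% (Cdkn2a) of the AAV-Cre bases were in AAV-GFP regions. Each list came from its own libraries and its own pooled input, so that the virus and the libraries cannot be told apart.

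Within each list, the start site regions ranked high for Ccnd2, Ccnd1 and Cdkn2a and lower for the others. In AAV-Cre 4 of the 58 regions were among the strongest 1% of the list and 15 among the strongest 10%. In AAV-GFP 1 of 74 was among the strongest 1% and 11 among the strongest 10%. A q-value of 0.05 or lower was found for 53 of the AAV-Cre regions (91.4%) and 42 of the AAV-GFP regions (56.8%).

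**Figure D4:**
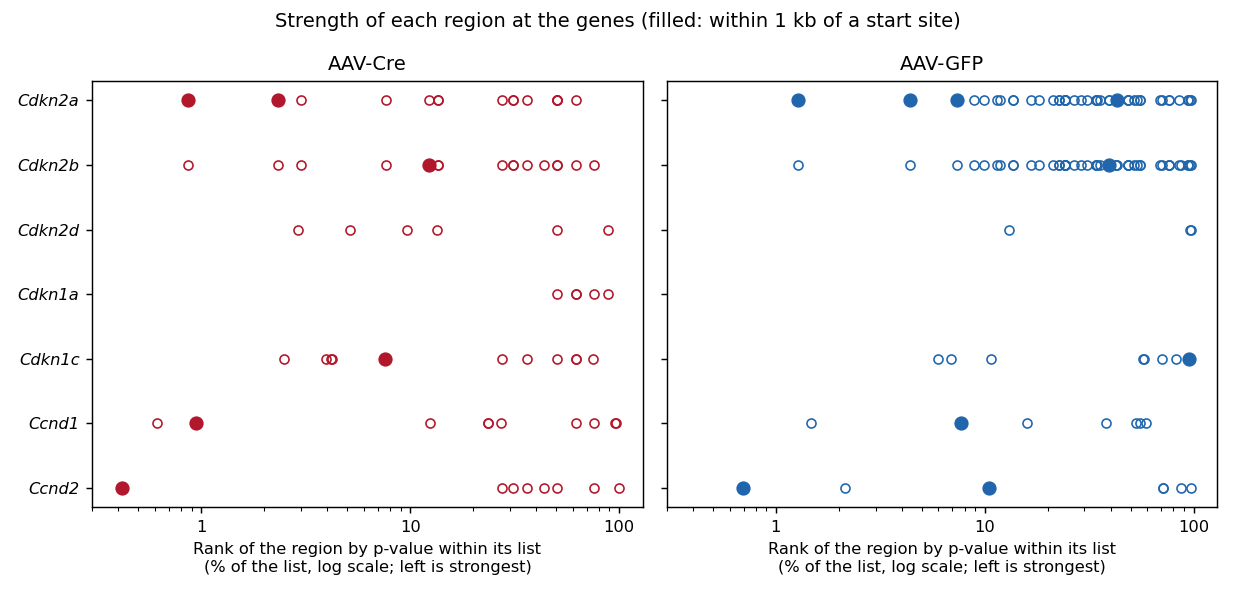
Rank of each region by p-value as a percent of its own list, on a log axis with the strongest to the left, for the 7 genes with a region, with filled points for regions within 1 kb of a start site. The leftmost AAV-Cre points are a Ccnd2 start site region (0.415%) and the Fgf15 region counted for Ccnd1 (0.614%), and the regions of Cdkn1a all lie beyond 50%.

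Few of the other genes of the cycle had a region at a start site. Of 36 other cell cycle genes listed, 35 were found by name, and 8 (22.9%) in AAV-Cre and 4 (11.4%) in AAV-GFP had a region within 1 kb of a start site, near the shares of all genes given above. The 4 in both lists were Ccna1, the germ cell cyclin A, Ccnb1, the mitotic cyclin B, E2f7, an E2F repressor, and Cdc25c, a phosphatase that activates CDK1. Ccna1 was the strongest, with a region over its start site of 2492 bp in AAV-Cre (ranked 1615) and 1467 bp in AAV-GFP (ranked 862). The 4 found only in AAV-Cre were Cdk1, the mitotic kinase, Ccna2, the S-phase cyclin, Cdc6, a replication licensing factor, and Cdkn3, a phosphatase of CDK2, with ranks of 12047 (Ccna2) to 52494 (Cdc6). They made up 11.4% of the 35, against 7.63% of all genes in AAV-Cre alone. None was found only in AAV-GFP, against 0.288% of all genes.

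Within 15 kb, 20 of the 35 genes had a region in AAV-Cre (57.1%) and 11 in AAV-GFP (31.4%), where 41.6% and 28.0% of all genes did. Of these, 11 (31.4%) were found in AAV-Cre alone and 2, Cdk6 and Rbl1, in AAV-GFP alone (5.71%), where 14.8% and 1.21% of all genes were. Within 50 kb or over the body the counts were 24 (68.6%) and 18 (51.4%), against 62.2% and 47.2% of all genes. Those in AAV-Cre alone numbered 7 of 35, against 17.1% of all genes, and 1, Cdk6, was in AAV-GFP alone (2.86%), against 2.09%. The direct partners of the D-type cyclins, named here after their values were seen, differed among themselves. Cdk4 had its nearest region at 1967 bp in AAV-Cre and 3310 bp in AAV-GFP, Cdk6 at 190123 bp and 7590 bp, and the retinoblastoma gene Rb1 at 222751 bp and 329053 bp.

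**Figure D5:**
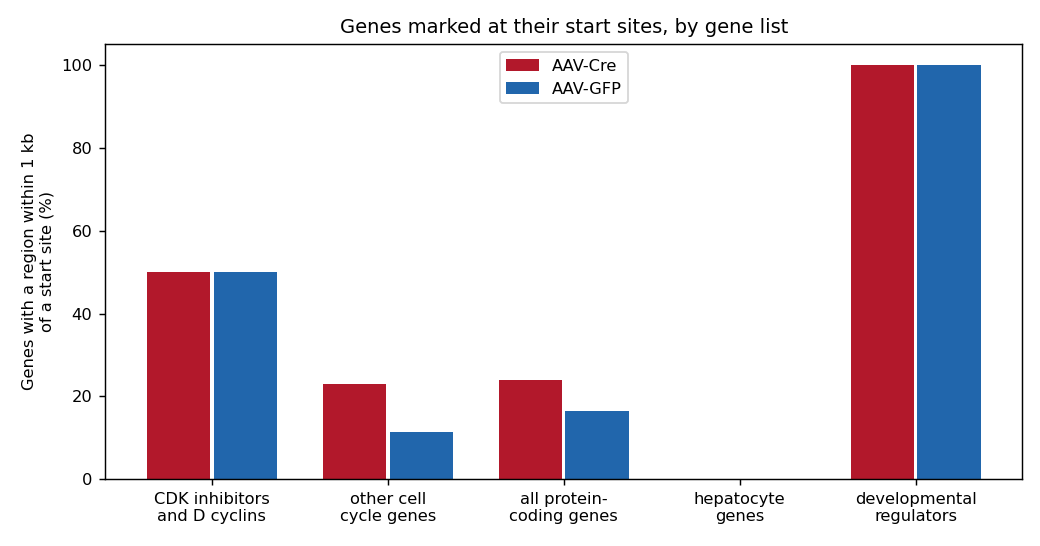
Percent of genes with a region within 1 kb of a start site in each pooled list, for the 10 CDK inhibitor and D-type cyclin genes, 35 other cell cycle genes, all 21851 protein-coding genes, 10 hepatocyte genes and 10 developmental regulators. The 10 genes stood at 5 of 10 in both lists, between all genes (24.0% and 16.6%) and the developmental regulators, which were all marked.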

How the data were processed

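H3K27-me3 ChIP-seq of liver was processed by the authors with the AQUAS pipeline and a pooled input control. Per the submitters' processing notes, reads were mapped to mm10 with BWA 0.7.13 and filtered with SAMtools 1.2 and Picard 1.126. MACS called narrow peaks, and those overlapping across replicates were kept, so that a broad domain is split into several regions and each list pools 2 libraries. For each peak the deposited lists give a fold enrichment over input (a ratio), the −log10 of a p-value and of a q-value, and a summit, all from the authors' peak caller. The files hold no read counts, so depth is unknown. AAV-Cre peaks began at a −log10 p of 2.03 and AAV-GFP peaks at 2.00.

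Groups were taken from the labels. With Python 3.11.15, regions were matched to GENCODE M21 genes on GRCm38. A gene had a region when at least 1 bp lay within the window around a start site of a basic protein-coding transcript, or over the body where stated. Regions with gaps of at most 1 kb were chained. Regions were ranked within a list, and folds and scores of single regions were not compared between lists. The alternatives did put the same q-value or −log10 p cut on both lists. A −log10 p of 3.48 went with a −log10 q of 1.64 in AAV-Cre and of 0.82 in AAV-GFP. At that p-value a q-value cut was therefore stricter on AAV-GFP. With 1 list per group no test was made. The overlap functions were tested on simulated data, where 100% of calls equalled a direct search. All 10 genes were named, with every region, the protein-coding gene with the closest start site, and those of the cell cycle list with a region within 1 kb. Ccnd1bp1 of that list was not matched. The genes, lists and rules were chosen with earlier results of these data known. Alternatives were q-values of 0.05 and 0.01, a −log10 p of 5, widths of 300 bp, 34586 top peaks per list, other windows, all transcripts and other overlap rules. The display score was not used.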

Additional observations from a re-analysis of the deposited data

How the results depend on the processing

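No paired analysis was possible because each list pools both replicates and holds no value per replicate. For the same reason no replicate was left out. The 5 genes with a region within 1 kb of a start site in AAV-Cre were found under each alternative. In AAV-GFP their number was 4 at a q-value of 0.05 and at a width of 300 bp, where Cdkn1c was lost, and 3 at a q-value of 0.01 and at a −log10 p of 5, where Cdkn2b was lost too. The count of genes marked only in AAV-Cre rose from 0 accordingly, to 1 (q-value of 0.05, width of 300 bp) and 2 (q-value of 0.01, −log10 p of 5). Cdkn1a, the sole gene with a region within 50 kb only in AAV-Cre, dropped out at a −log10 p of 5 and with windows of 1, 5 or 15 kb, which left 0. With 34586 top peaks per list, 2 cell cycle genes in place of 4 were marked within 1 kb only in AAV-Cre, since Cdk1 and Cdc6 ranked below that number. The shares of all genes under these changes of threshold, width or number of peaks are not given, so the changed counts have no background beside them.

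The share of AAV-Cre regions that overlapped an AAV-GFP region was 41.4%, and became 17.2% when a fraction of 0.5 or more of its bases was required to overlap, 28.3% and 27.1% at q-values of 0.05 and 0.01, 27.6% at a width of 300 bp and 59.0% with equal numbers of top peaks. The width of 300 bp removed AAV-GFP regions only, so the AAV-Cre share could only stay or fall at that setting. The share of AAV-GFP regions became 100% at both q-values. The shares of the whole lists under these settings are not given, so these values have no background beside them. Covered bases within 10 kb moved by over 1.5 times for Cdkn1c in AAV-GFP only, from 1052 to 559 bp at either q-value and at a width of 300 bp. Depth is unknown, so a gene without a region was not shown to lack the mark.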
